A study of Mus musculus with 8 samples.

Results

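The osteoclast, the bone-resorbing cell of the macrophage lineage, is marked by a set of genes of which 10 were followed here in brain microglia and bone-marrow macrophages: Tnfrsf11a, Oscar, Calcr, Dcstamp, Ocstamp, Atp6v0d2, Ctsk, Acp5, Mmp9 and Cd109. They are 10 of the 23413 gene symbols in the deposited table, and all 10 had a row there. The genes were selected on their levels in these same libraries, in particular in repopulating microglia, so every comparison of these genes is given here as a description. The low-value filter of the tests (10 normalised counts or more in 2 libraries or more) kept 8 of the 10. Oscar and Calcr stayed below it and are described by their reads.

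RNA sequencing was done on 8 mouse libraries of 3 groups: wild-type microglia (n = 2, strain label DTR), repopulating microglia (n = 3, strain label DTRmg) and bone-marrow macrophages (n = 3, strain label DTRmg). The series title names interleukin-1 and microglial self-renewal as its subject. All 8 samples, wild type included, carry 1 common protocol: tamoxifen, 2 mg under the skin on postnatal days 12 and 14, then 3 injections of 500 ng diphtheria toxin to remove microglia, and later release of brain cells with papain, a Percoll gradient and cell sorting. That text does not say which group received which step. Values are normalised counts, the authors' gene counts divided by 1 size factor per library. The labels do not spell out the alleles behind DTR and DTRmg, the promoter that drives the recombinase, the age at sampling, or the organ that the bone-marrow macrophages were sorted from. Strain label and group cannot be told apart in the comparisons with wild type. Nor is it said that replicates were separate animals, so a p-value reflects the variation among these libraries, part of which may be technical.

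Osteoclasts arise when precursors of the monocyte and macrophage lineage receive the cytokine RANKL through its receptor RANK, together with signals from the CSF1 receptor and from immunoreceptor-coupled receptors such as OSCAR. The precursors then switch on the transcription factor NFATc1, fuse through the membrane proteins DC-STAMP and OC-STAMP, acidify a sealed space on bone with a vacuolar proton pump and digest the matrix with cathepsin K, tartrate-resistant acid phosphatase and metalloproteinases. Microglia share the CSF1 receptor and the macrophage lineage with osteoclasts but are not bone-resorbing cells.

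The promoters of 3 of these genes are shown because of the contrast between these genes: Ctsk and Acp5 reached the highest levels per kilobase and differed widely between repopulating libraries, while Tnfrsf11a was steady. Each sequence is the 250 bases before a RefSeq transcription start in GRCm38.p6, 5′ to 3′ on the strand of the gene, with motif matches in capitals. The third of 3 listed starts is shown for Acp5 because it alone of the 3 held a match to the E-box of MITF and TFE factors.
Ctsk: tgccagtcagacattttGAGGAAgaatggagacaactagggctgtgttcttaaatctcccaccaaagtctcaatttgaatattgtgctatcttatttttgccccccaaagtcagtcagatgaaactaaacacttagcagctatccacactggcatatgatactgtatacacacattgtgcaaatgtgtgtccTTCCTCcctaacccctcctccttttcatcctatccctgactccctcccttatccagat
Acp5: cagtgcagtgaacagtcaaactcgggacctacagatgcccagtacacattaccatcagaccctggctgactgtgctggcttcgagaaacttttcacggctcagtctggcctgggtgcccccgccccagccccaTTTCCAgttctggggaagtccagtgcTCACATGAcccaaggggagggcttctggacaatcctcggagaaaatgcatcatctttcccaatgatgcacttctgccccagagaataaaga
Tnfrsf11a: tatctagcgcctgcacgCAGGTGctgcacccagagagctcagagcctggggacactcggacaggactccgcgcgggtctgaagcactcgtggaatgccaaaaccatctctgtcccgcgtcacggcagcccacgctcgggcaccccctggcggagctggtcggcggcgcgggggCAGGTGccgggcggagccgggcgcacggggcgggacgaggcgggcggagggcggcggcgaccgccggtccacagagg
The Ctsk window lies at chr3:95498960-95499209 on the plus strand, the Acp5 window at chr9:22130599-22130848 on the minus strand, within the annotated gene and holding 10 exon bases, and the Tnfrsf11a window at chr1:105780473-105780722 on the plus strand, of which 5 bases are exon in GENCODE. Both strands were searched for GAGGAA (the core bound by PU.1), TGGAAA (a core bound by NFAT factors), TGANTCA (AP-1), TCANGTGA (the E-box of MITF and TFE factors) and the shorter E-box CANGTG, which every TCANGTGA contains. The Ctsk window held 2 matches to GAGGAA, starting 233 and 58 bases before the start, and no other match. The Acp5 window held 1 TCANGTGA match, starting 91 bases before the start, the short E-box inside it, and 1 TGGAAA match. The Tnfrsf11a window held 2 short E-boxes only. Among all 32536 mouse promoter windows of this length, 23.4% held GAGGAA, 18.6% TGGAAA, 6.73% TGANTCA, 3.39% TCANGTGA and 39.5% CANGTG. Of the 10 genes 5 had a promoter entry, with 8 windows in all, and none of these 8 windows held TGANTCA. These matches describe the letters of the windows and no binding was measured here.

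Repopulating replicate 3 stood apart from replicates 1 and 2 for these genes. In all 10 genes the order of the repopulating libraries was the same, replicate 3 lowest and replicate 2 highest, an order found in 26.7% of all 11415 tested genes. Replicates 1 and 2 lay above every bone-marrow macrophage library for 8 of the 10 genes, 6 of them among the 8 tested, beside 33.8% of all tested genes. Replicate 3 lay below every bone-marrow macrophage library for 9 of the 10, 8 of them tested, beside 41.1% of all tested genes. The repopulating levels chose the genes, and nothing is read from these shares. The results below are therefore given with and without replicate 3. In bulk samples, fewer cells that express a gene and less RNA of it per cell cannot be told apart.

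**Figure D1:**
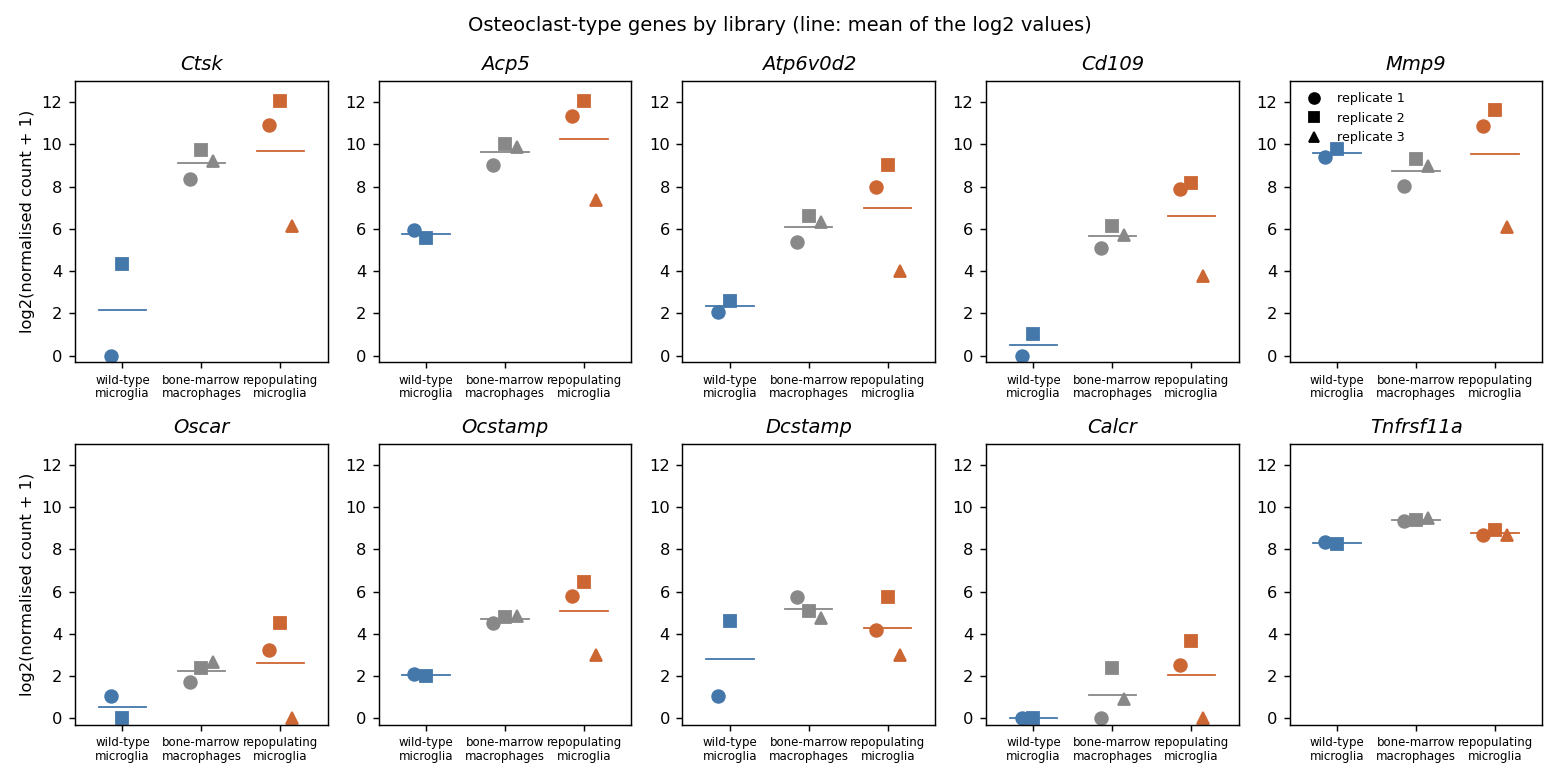
Log2(normalised count + 1) of the 10 genes (y axis) in each library (points, shape gives the replicate number), by group on the x axis (2 wild-type microglia, 3 bone-marrow macrophage and 3 repopulating microglia libraries), with a line at each group's mean of the log2 values. Replicate 3 of the repopulating microglia is the lowest of its group in every panel, far below the others for Ctsk, Acp5, Atp6v0d2, Cd109 and Mmp9 and level with replicate 1 for Tnfrsf11a.

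Among the receptors, Tnfrsf11a encodes RANK itself and lies on chromosome 1 (GRCm38, 105780718 to 105847981, plus strand). It stood at 322 and 308 normalised counts in the wild-type microglia, at 644, 664 and 721 in the bone-marrow macrophages, and at 409.9, 486 and 408.9 in the repopulating microglia. The 3 groups did not overlap, and the repopulating microglia lay between the other groups. Tnfrsf11a was the one gene of the 10 with a narrow spread among the repopulating libraries, with a coefficient of variation (SD over mean) of 10.1%. Relative to bone-marrow macrophages it was lower in repopulating microglia by a log2 difference of -0.64 ± 0.12 (SE), and relative to wild type it was higher by 0.46 ± 0.14, both on the log2(normalised count + 1) scale used for every log2 difference here.

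Oscar, which encodes the collagen-binding costimulatory receptor OSCAR (chromosome 7, 3609813 to 3616157, minus strand), was near the floor of detection. It had 1 read in wild-type replicate 1 and 0 in replicate 2, 4, 4 and 6 reads in the bone-marrow macrophages, and 9, 15 and 0 reads in repopulating replicates 1 to 3. A library without a read could still hold up to 3 reads by counting error, which is 3.46 normalised counts in repopulating replicate 3. Summed over the groups and corrected for depth, Oscar was 17.7 times higher in repopulating than in wild-type microglia, with a 95% counting interval of 2.88 to 727 that treats each group as 1 sum and leaves out the spread between libraries. The bone-marrow macrophages were 7 times as high as the wild type, with an interval of 1.07 to 296.

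Calcr, the receptor of the hormone calcitonin, which halts resorption by mature osteoclasts, lies on chromosome 6 (3685680 to 3764714, minus strand). It had no read in either wild-type library, 0, 4 and 1 reads in the bone-marrow macrophages and 5, 8 and 0 reads in repopulating replicates 1 to 3. Against a floor of 3 reads over both wild-type libraries, the 13 reads of the repopulating group came to a 3.19-fold difference after correction for depth. That value takes the 13 reads as exact and leaves out the spread between libraries, so it is not a strict lower limit. No fold is given for the bone-marrow macrophages, whose 5 reads in all were too few. Reads of the microRNA genes Mir653 and Mir489, which lie inside Calcr, were 0 in every library.

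The fusion proteins came next. Dcstamp encodes DC-STAMP, a membrane protein that osteoclast precursors need in order to fuse (chromosome 15, 39745930 to 39760938, plus strand). It stood at 1.07 and 23.4 normalised counts in the wild-type microglia, at 51.7, 32.9 and 25.6 in the bone-marrow macrophages and at 17.0, 51.7 and 6.91 in the repopulating microglia. The wild-type libraries differed from each other by more than the repopulating group differed from the bone-marrow group, and repopulating microglia overlapped both other groups. Dcstamp was highest on average in the bone-marrow macrophages, at 36.7 ± 13.5 (SD, n = 3), against 25.2 ± 23.5 (SD, n = 3) in the repopulating microglia and 12.2 ± 15.8 (SD, n = 2) in the wild type.

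Ocstamp encodes OC-STAMP, the partner protein in fusion (chromosome 2, 165393760 to 165400405, minus strand). Its normalised counts were 3.21 and 3.05 in the wild-type microglia, 21.6, 26.5 and 27.3 in the bone-marrow macrophages and 54.8, 87.1 and 6.91 in the repopulating microglia. Repopulating replicates 1 and 2 lay above every bone-marrow library and replicate 3 between the bone-marrow and wild-type ranges. The wild-type value rests on 3 reads in each library.

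Atp6v0d2 encodes a subunit of the membrane sector of the vacuolar proton pump that is enriched in osteoclasts and also needed for their fusion (chromosome 4, 19876841 to 19922605, minus strand). It stood at 3.21 and 5.08 normalised counts in the wild-type microglia, at 40.3, 97.6 and 78.5 in the bone-marrow macrophages and at 250.3, 515 and 15.0 in the repopulating microglia. Its widely expressed sister subunit Atp6v0d1 varied far less, between 1212 and 1278 in the wild type, 1235 and 1415 in the bone-marrow macrophages and 928 and 1454 in the repopulating microglia.

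The secreted enzymes of bone digestion reached the highest levels. Ctsk encodes cathepsin K, the protease that cleaves the collagen of bone (chromosome 3, 95499256 to 95509362, plus strand). It stood at 0 and 19.3 normalised counts in the wild-type microglia, at 326, 857 and 601 in the bone-marrow macrophages and at 1928, 4203 and 70.3 in the repopulating microglia. Repopulating replicates 1 and 2 exceeded the highest bone-marrow library, while replicate 3 was below the lowest and above both wild-type libraries. The library at 0 could hold up to 3.21 normalised counts. The next gene on the same strand, Ctss, which encodes the microglial protease cathepsin S and starts 17424 bases further on, did not show the drop of replicate 3 below bone-marrow macrophages, with 146250 and 137605 in replicates 1 and 2, 92819 in replicate 3 and 54800 to 62167 in the bone-marrow macrophages.

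Acp5 encodes tartrate-resistant acid phosphatase, the histochemical marker of osteoclasts (chromosome 9, 22126727 to 22135711, minus strand). Its normalised counts were 59.8 and 46.8 in the wild-type microglia, 517, 1027 and 937 in the bone-marrow macrophages and 2569.9, 4186 and 164 in the repopulating microglia. The same layout as for Ctsk was seen, with replicate 3 alone between the bone-marrow and wild-type ranges. A transcript on the other strand, 6530413G14Rik, overlaps Acp5, and because the library kit does not mark strand its reads and those of Acp5 cannot be told apart.

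Mmp9 encodes the gelatinase MMP-9 (chromosome 2, 164940780 to 164955850, plus strand), which neutrophils also store in granules. It stood at 679.6 and 865 normalised counts in the wild-type microglia, at 257, 624 and 497 in the bone-marrow macrophages and at 1892, 3138 and 66.8 in the repopulating microglia. Mmp9 was thus the one gene of the 10 whose repopulating replicate 3 lay below every library of both other groups, and the one gene higher in the wild type than in every bone-marrow library. Summed markers of neutrophils moved with the group: 12 markers came to 29402 to 31796 normalised counts in the wild type, 1613 to 1998 in the bone-marrow macrophages and 5387 to 6589 in the repopulating microglia, and none was at 0 in all libraries of any group. For 11 of the 12 every repopulating library lay below both wild-type libraries, beside 22% of all tested genes. The exception was Csf3r, the receptor of granulocyte colony-stimulating factor, at 3382, 2872 and 4639 in repopulating replicates 1 to 3 against 2125 and 1768. Within the repopulating group 8 of the 12 were, like Mmp9, lower in replicate 3 than in replicates 1 and 2. The share of all tested genes lowest in replicate 3 was not counted, so nothing is read from the number of these 8. Among them were S100a8 at 911, 731 and 343 and Retnlg at 153, 98.9 and 33.4. Of these 8 only Lcn2, at 141, 146 and 107, rose from replicate 1 to replicate 2 as Mmp9 did, and the others fell. Without Csf3r the sum was 3207, 2515 and 1719.6 in replicates 1 to 3, so that replicates 1 and 2 stood at 1.86 and 1.46 times replicate 3, while for Mmp9 they stood at 28.3 and 47.0 times. The part of neutrophil RNA in the Mmp9 level of any group was not tested.

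**Figure D2:**
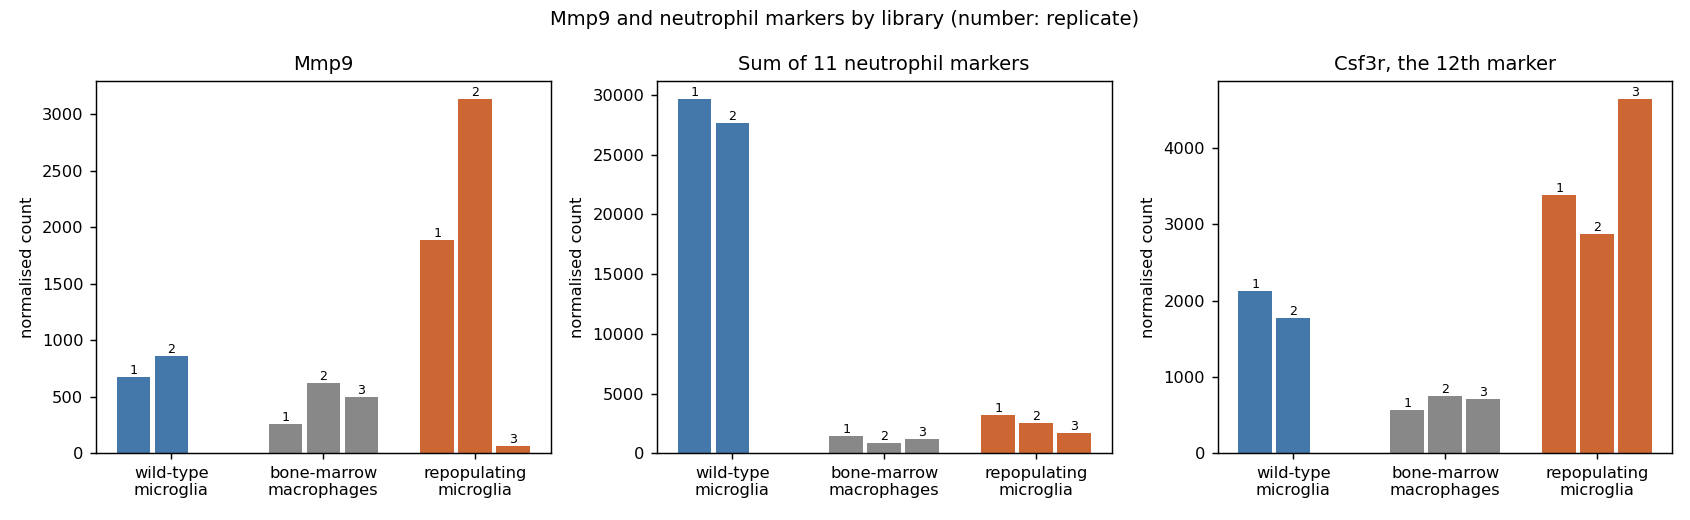
Normalised count of Mmp9 (left), the sum of 11 neutrophil markers (middle) and Csf3r, the 12th marker (right), y axes from 0, in each library (bars, replicate number above) of the 3 groups on the x axis. The sum of 11 is highest in the wild type, at 27634 and 29671, and lowest in replicate 3 among the repopulating libraries, at 1719.6, as is Mmp9 at 66.8, while Csf3r is highest there, at 4639.

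Cd109 encodes a membrane-anchored protein that binds transforming growth factor beta together with its receptors (chromosome 9, 78615546 to 78716253, plus strand). Its normalised counts were 0 and 1.02 in the wild-type microglia, 33.5, 70.0 and 51.1 in the bone-marrow macrophages and 236, 289 and 12.7 in the repopulating microglia. With 1 read in the wild type in all, the ratio of summed reads was 337 for repopulating against wild-type microglia (95% counting interval 60.1 to 13300) and 91.6 for bone-marrow macrophages against the wild type (16.2 to 3640). The antisense transcript 4921509A06Rik overlaps Cd109, and reads of the pair cannot be told apart either.

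Per kilobase of exon, the scale on which levels of different genes can be set side by side, the order of the genes differed between groups. In the wild type Mmp9 led with 218 ± 37.1 (SD, n = 2) normalised counts per kilobase, then Tnfrsf11a with 52.6 ± 1.60, Acp5 with 26.3 ± 4.55 and Ctsk with 6.39 ± 9.03, and the other 6 genes lay below 5. In the bone-marrow macrophages Acp5, at 407 ± 134 (SD, n = 3), and Ctsk, at 393 ± 176, did not differ beyond their spread, and neither did Mmp9, at 129.8 ± 52.6, and Tnfrsf11a, at 113 ± 6.72. In repopulating replicates 1 and 2 Ctsk stood at 1275 and 2780 per kilobase, Acp5 at 1266 and 2062, Mmp9 at 535 and 887, Atp6v0d2 at 92.1 and 189.6, Tnfrsf11a at 68.5 and 81.1 and Cd109 at 34.2 and 41.9. In replicate 3 the order was Acp5 at 80.6, Tnfrsf11a at 68.3, Ctsk at 46.5 and Mmp9 at 18.9 per kilobase, with Atp6v0d2 at 5.51. Calcr was last in every group, with at most 3.02 per kilobase in any library.

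The order of the group means was repopulating microglia, bone-marrow macrophages, wild-type microglia for 7 genes (Ctsk, Acp5, Atp6v0d2, Cd109, Oscar, Ocstamp and Calcr). In each of these 7 the repopulating libraries overlapped the bone-marrow libraries, so the first 2 places do not differ beyond their spread. For Dcstamp and Tnfrsf11a the bone-marrow macrophages came first, and for Mmp9 the order was repopulating, wild type, bone marrow.

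The first comparison asked how far repopulating microglia differed from wild-type microglia. All 3 repopulating libraries were above both wild-type libraries for 6 of the 10 genes, namely Ctsk, Acp5, Atp6v0d2, Cd109, Ocstamp and Tnfrsf11a. Among all tested genes 18.5% were higher without overlap. The log2 difference was 7.53 ± 1.69 (SE) for Ctsk, 6.11 ± 1.15 for Cd109, 4.66 ± 1.21 for Atp6v0d2, 4.49 ± 1.13 for Acp5, 3.04 ± 0.86 for Ocstamp, 1.46 ± 1.04 for Dcstamp and -0.06 ± 1.35 for Mmp9. The median over the 8 tested members was 3.76, beside -0.02 over all tested genes. By limma, Ctsk, Acp5, Atp6v0d2 and Cd109 passed an adjusted p of 0.05, 4 of 8 beside 4.86% of all tested genes called higher. This contrast chose the genes, and nothing is read from that share.

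Those 4 calls depended on which libraries were in the fit. Without repopulating replicate 3, 7 of the 8 passed, all but Dcstamp, beside 14.8% of all genes called higher, and the difference of Mmp9 turned from -0.06 to 1.67. With repopulating replicate 2 or any 1 bone-marrow library left out, 1 passed, Cd109. Without repopulating replicate 1, without either wild-type library, or in a fit of only the 2 groups, none passed, while 6 of 8 had an unadjusted p under 0.05 in that last fit. Calls over all tested genes fell as well, from 983 to 468 without repopulating replicate 1 and to 78 in the fit of only the 2 groups. They fell to 886 without repopulating replicate 2 and to between 496 and 528 without any 1 bone-marrow library. Dcstamp turned to -0.32 without wild-type replicate 1.

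The second comparison set repopulating microglia against bone-marrow macrophages, which carry the same strain label. No gene of the 10 was higher without overlap, beside 23.7% of all tested genes, and Tnfrsf11a was lower without overlap, beside 22.4%. The log2 differences were 0.96 ± 1.03 (SE) for Cd109, 0.89 ± 1.08 for Atp6v0d2, 0.77 ± 1.21 for Mmp9, 0.61 ± 1.01 for Acp5, 0.59 ± 1.51 for Ctsk, 0.38 ± 0.77 for Ocstamp and -0.89 ± 0.93 for Dcstamp, each smaller than its SE. By limma none of the 8 was called higher (16% of all genes were) and Tnfrsf11a alone was called lower (14.9% of all genes were). Without replicate 3, 6 were called higher, beside 23.4% of all genes, and Tnfrsf11a lower, beside 23.5%. Without replicate 2 the differences of Ctsk, Acp5, Atp6v0d2, Mmp9 and Ocstamp were below 0 instead, between -0.58 and -0.12.

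Ratios to the mean of the bone-marrow macrophages show both sides of this split. Ctsk stood at 3.24 and 7.07 times that mean in repopulating replicates 1 and 2 and at 0.118 times in replicate 3. Atp6v0d2 stood at 3.47, 7.14 and 0.208 times, Mmp9 at 4.12, 6.83 and 0.145 times, Acp5 at 3.11, 5.06 and 0.198 times and Cd109 at 4.58, 5.61 and 0.246 times. Ocstamp followed at 2.18, 3.46 and 0.275 times. Dcstamp exceeded the mean in replicate 2 alone, at 0.463, 1.41 and 0.188 times, and Tnfrsf11a was below it throughout, at 0.606, 0.718 and 0.605 times.

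**Figure D3:**
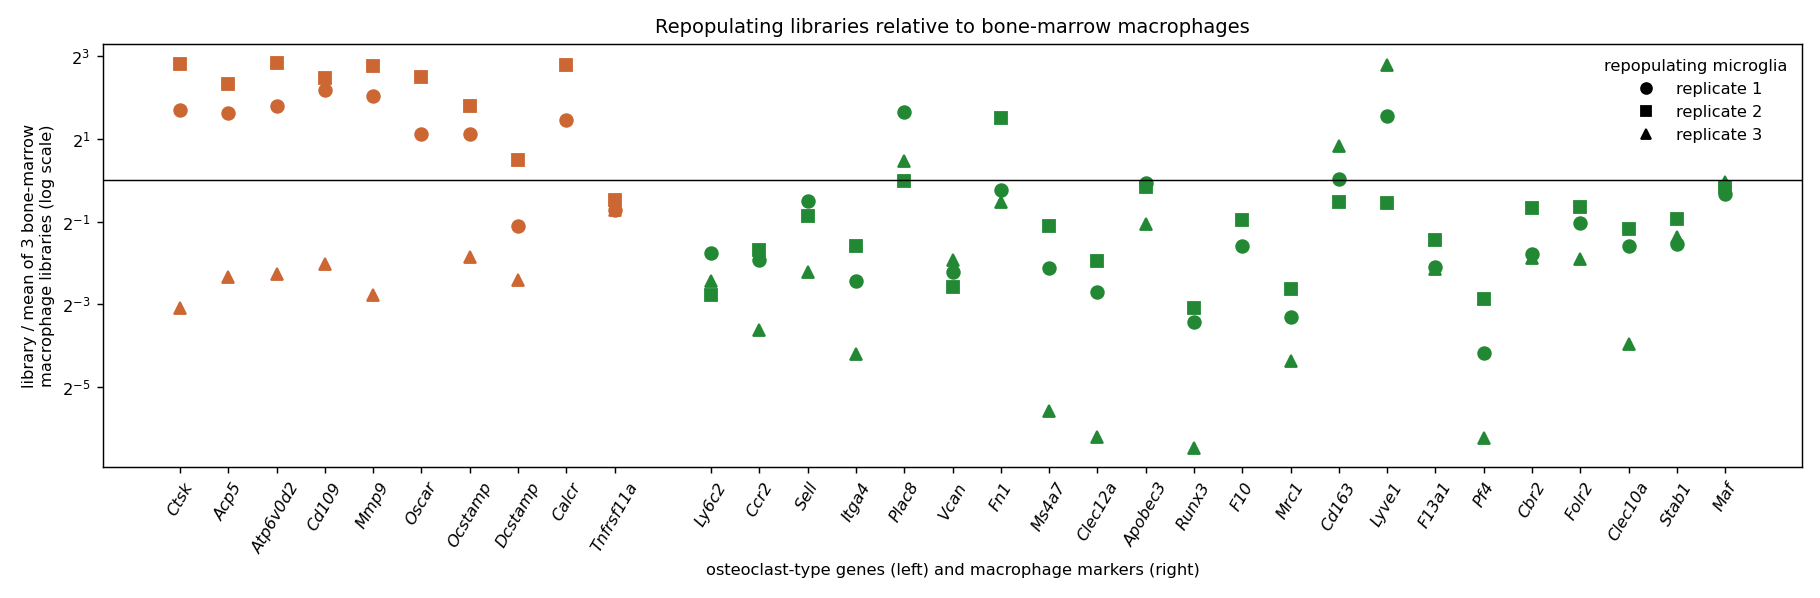
Each repopulating library divided by the mean of the 3 bone-marrow macrophage libraries (y axis, log scale in powers of 2, line at equality) for the 10 osteoclast-type genes (orange) and 22 markers of monocytes, marrow-derived and border-associated macrophages (green). Replicates 1 and 2 (circles, squares) both lie above the line for 8 of the 10 osteoclast-type genes, and replicate 3 (triangles) lies below it for all 10. Of the 22 markers 19, 21 and 19 lie below it in replicates 1, 2 and 3. Oscar, Calcr and F10 had no read in replicate 3 and have no triangle.

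Spread among the 3 repopulating libraries was wide for all but Tnfrsf11a. Replicate 1 exceeded replicate 3 by a factor of 27.4 for Ctsk, 28.3 for Mmp9, 18.6 for Cd109, 16.7 for Atp6v0d2, 15.7 for Acp5, 7.93 for Ocstamp and 2.46 for Dcstamp. Replicate 2 exceeded replicate 1 by a factor of 1.23 for Cd109 to 3.04 for Dcstamp, and Dcstamp alone among these 7 genes had the larger step there. The coefficient of variation of the repopulating libraries was 81.3% to 100.1% for the 7 tested genes other than Tnfrsf11a, against a median of 22.9% over all tested genes, and 109% for Oscar and 108% for Calcr. The log2 level of replicate 3 minus the mean of replicates 1 and 2 had a median of -4.29 over the 8 tested members and -0.02 over all tested genes. Replicate 3 was at least 2 log2 units lower in 6 of these 8 and in 192 tested genes, 1.68% of all.

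The bone-marrow macrophages varied less, and with another order. Replicate 1 was lowest and replicate 2 highest for 6 of the 10 genes (Ctsk, Acp5, Atp6v0d2, Cd109, Mmp9 and Calcr), an order found in 12.7% of all tested genes. Replicate 2 exceeded replicate 1 by 2.63 times for Ctsk, 2.42 times for Atp6v0d2 and Mmp9, 2.09 times for Cd109 and 1.99 times for Acp5, but only 1.03 times for Tnfrsf11a. Dcstamp was lower in replicate 2, at 0.636 times replicate 1. In Oscar, Ocstamp and Tnfrsf11a replicate 3 was the highest.

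Some markers of other macrophages were, like these genes, lowest in repopulating replicate 3. The 12 markers of monocytes or marrow-derived macrophages summed to 2756, 4134 and 1040.1 normalised counts in repopulating replicates 1 to 3, against 7604 to 9118 in the bone-marrow macrophages and 4527 to 6880 in the wild type. Of the 12, 9 were lower in replicate 3 than in replicates 1 and 2. The share of all tested genes lowest in replicate 3 was not counted, so nothing is read from the number of markers lowest there. The largest steps included Ms4a7, a membrane protein of marrow-derived macrophages, at 320.2, 645 and 28.8, the C-type lectin receptor Clec12a at 396, 669 and 34.6 and the transcription factor Runx3 at 57.6, 72.3 and 6.91. The 10 border-associated markers summed to 5351, 7759 and 5739, against 16497 to 19878 and 4072 to 5290, so replicate 3 was not the lowest. Stab1 made up most of that sum, at 3438, 5245 and 3859. Of these 10, 6 were lower in replicate 3 than in replicates 1 and 2, among them Mrc1 (410, 654 and 196) and Pf4 (81.2, 202 and 19.6). Lyve1 (18.9, 4.43 and 44.9), Cd163 (21.7, 14.8 and 38.0) and Maf (1169, 1312 and 1422) were highest in replicate 3, and Stab1 was lowest in replicate 1. Across both lists, 10 markers were above wild type in every bone-marrow library. Of these, 8 had the order of Ctsk in the repopulating libraries, beside 26.7% of all tested genes, and Apobec3 and Stab1 did not. No marker of either list was at 0 in all libraries of a group. Of all 22 markers, 3 exceeded the bone-marrow mean in replicate 1 (Plac8, Cd163 and Lyve1), 1 in replicate 2 (Fn1) and 3 in replicate 3 (Plac8, Cd163 and Lyve1). The part of such cells in the osteoclast-type levels was not tested.

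Other cell types were checked with the same kind of list. The 12 microglial markers summed to 477737 to 521751 in the wild type, 313397 to 364419 in the repopulating microglia and 99219 to 112061 in the bone-marrow macrophages, with 343429 in repopulating replicate 3. Summed osteoblast, fibroblast and other stromal markers, the neighbours of osteoclasts in bone, came to 88.7 to 111 in the wild type, 5.11 to 12.7 in the bone-marrow macrophages and 38.4 to 134 in the repopulating microglia, and the osteoblast genes Sp7 and Ibsp had no read in any library. Sums of wild type, bone-marrow macrophages and repopulating microglia were 467 to 731, 74.4 to 83.8 and 239 to 555 for endothelial markers, 1179.6 to 6518, 100.02 to 140.0 and 266 to 2232 for astrocyte markers, and 1271 to 1405, 1129.5 to 1275 and 1325 to 1616 for oligodendrocyte markers. They were 17.1 to 20.3, 12.5 to 20.2 and 10.3 to 33.4 for neurons, 63.0 to 160.3, 51.7 to 82.7 and 17.7 to 34.9 for T, NK and B cells, and 355 to 357, 141 to 160.3 and 161 to 183 for dendritic cells. Their part in the osteoclast-type levels was not tested either.

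The third comparison, bone-marrow macrophages against wild-type microglia, leaves out the repopulating libraries but shares the wild-type libraries with the first, so it is not independent of the choice of genes. Ctsk, Cd109, Atp6v0d2, Ocstamp and Dcstamp did not reach 10 normalised counts in both wild-type libraries and passed the low-value filter only with the other groups. The p-values, calls and shares of these genes are given as a description, and nothing is read from them. The bone-marrow macrophages were higher without overlap for 8 of the 10 genes, beside 38% of all tested genes, and lower without overlap for Mmp9, beside 37.8%. By limma 6 of 8 were called higher, beside 21.3% of all tested genes, and none lower, beside 22.2%. The log2 difference was 6.94 ± 1.69 (SE) for Ctsk (adjusted p = 0.0108, limma), 5.15 ± 1.15 for Cd109 (0.00722), 3.88 ± 1.13 for Acp5 (0.0229), 3.76 ± 1.21 for Atp6v0d2 (0.0337) and 2.66 ± 0.86 for Ocstamp (0.0342). It was 1.10 ± 0.14 for Tnfrsf11a (adjusted p = 0.000391, limma), the smallest of the called differences and the one with the smallest error. The fit pools the spread of all groups, so the wide spread of the repopulating libraries enters these errors. Dcstamp, at 2.35 ± 1.04 (adjusted p = 0.0975), and Mmp9, at -0.83 ± 1.35 (adjusted p = 0.638), did not pass. The median over the 8 was 3.21, beside -0.01 over all tested genes.

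In a limma fit of only the bone-marrow and wild-type libraries 7 were called higher, beside 31.9% of all genes, and Mmp9 lower (adjusted p = 0.0245), beside 30.9%. The count of 6 calls higher became 4 without bone-marrow replicate 1 and 3 without bone-marrow replicate 2 or replicate 3. Over all tested genes the calls higher went from 2428 to 1720, 1842 and 1695 without bone-marrow replicates 1, 2 and 3. Tnfrsf11a passed in each of the 20 alternative fits.

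Likeness of level to Ctsk was measured by Pearson's r of log2(normalised count + 1) over the 8 libraries, which share 3 groups and the same depth scaling, so r is given as a description. Among the osteoclast-type genes r with Ctsk was 0.974 for Cd109, 0.953 for Atp6v0d2, 0.936 for Ocstamp, 0.932 for Acp5, 0.806 for Dcstamp, 0.639 for Tnfrsf11a and 0.347 for Mmp9. Among all other tested genes with at least 100 normalised counts in a library, Slc9b2 was most like it (r = 0.969). Slc9b2 encodes a sodium and hydrogen exchanger and stood at 0 and 1.02 in the wild type, 11.4, 42.4 and 22.9 in the bone-marrow macrophages and 68.9, 149 and 4.61 in the repopulating microglia. It had the order of libraries seen for Ctsk in both groups of 3, with replicates 1 and 2 at 15.0 and 32.4 times replicate 3. The next 9 genes (Ap1ar, March8, Qpct, St13, Dpp8, Bnip2, Phka2, Focad and Aplp2) had r between 0.949 and 0.959 but a much smaller range, from 1.41 times for St13 to 4.31 times for Qpct between the lowest and highest library.

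**Figure D4:**
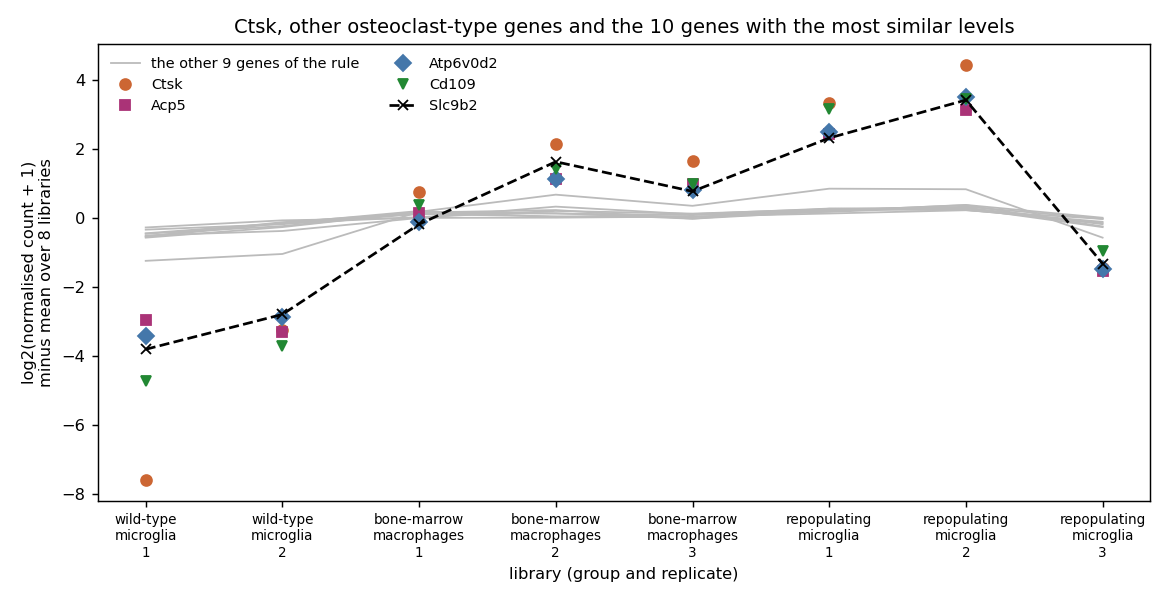
Log2(normalised count + 1) minus its mean over the 8 libraries (y axis) by library (x axis) for Ctsk, Acp5, Atp6v0d2 and Cd109 (coloured points), Slc9b2 (dashed line) and the other 9 genes whose levels were most like Ctsk (grey lines). Slc9b2 follows the osteoclast-type genes through all 3 groups, including the 4.61 normalised counts in repopulating replicate 3, while the grey lines stay nearly flat.

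The rest of the osteoclast programme was read from 4 lists of 150 genes in the table: RANK and its costimulatory signals, transcription factors, resorption machinery, and attachment and fusion. In repopulating against wild-type microglia limma called 2 higher and 1 lower of 39 tested signalling genes, none of 26 transcription factors (2 higher and 1 lower at an unadjusted p under 0.05), 4 higher and 2 lower of 43 resorption genes and 4 higher and 2 lower of 30 attachment genes. Background was 4.86% higher and 3.75% lower. Median log2 differences were 0.14, 0.03, 0.16 and -0.10 in that order, beside -0.02 over all tested genes. The median of 3.76 for the 8 osteoclast-type genes follows from how they were chosen, and nothing is read from its distance to the lists. The 15 calls became 8 or 9 without any 1 bone-marrow library or repopulating replicate 1 and 53 without repopulating replicate 3. Calls over all tested genes, 983 in the main fit, became 496 to 528 without any 1 bone-marrow library. They became 468 without repopulating replicate 1 and 2958 without repopulating replicate 3.

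RANKL, the ligand of Tnfrsf11a, was barely detected: Tnfsf11 had a single read in 1 bone-marrow library and none elsewhere, and its decoy receptor Tnfrsf11b stayed at or below 0.882 normalised counts. Nfatc1, the factor that drives Ctsk, Acp5 and Oscar in osteoclasts, did not follow them. It stood at 728 and 1005 in the wild type, 721, 726 and 801 in the bone-marrow macrophages and 745, 787 and 1211 in repopulating replicates 1 to 3, where replicate 3 was the highest. The gene of PU.1, listed as Sfpi1, was at 1908, 2323 and 2748 in repopulating replicates 1 to 3, also highest in replicate 3, and Mitf at 145, 124 and 146. Most listed transcription factors did not have the order of Ctsk in these libraries, but some did. That order was found in 26.7% of all tested genes, so nothing is read from the factors that had it. These factors were Fosl2 at 237, 360 and 130, Rbpj at 1484, 1680 and 1061, and Jdp2 at 81.2, 122 and 59.9. Prdm1, at 213, 221 and 168, and Tfec, at 9.44, 19.2 and 6.91, had it too. The part of any factor in the osteoclast-type levels was not tested.

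Signalling genes called in repopulating against wild-type microglia were Traf3, an inhibitory adaptor of RANK (log2 difference 1.25 ± 0.29 SE, adjusted p = 0.0331, limma), Nfkb2, the noncanonical NF-kappaB subunit (0.71 ± 0.16, 0.0323), and the leukotriene receptor Ltb4r1 (-2.83 ± 0.41, 0.00718). Against bone-marrow macrophages, Csf1 (3.47 ± 0.33), Trem2 (1.10 ± 0.13), Csf1r (1.12 ± 0.19) and Tnfaip3 (1.58 ± 0.29) rose, as did the transcription factors Klf2 (2.97 ± 0.30), Junb (2.19 ± 0.25), Fos (2.00 ± 0.29) and Jun (2.00 ± 0.30). The counts there were 6 higher and 1 lower for signalling, 8 and 5 for transcription factors, 13 and 3 for resorption, and 8 and 9 for attachment, against a background of 16% higher and 14.9% lower. With bone-marrow macrophages set against the wild type they were 7 and 9, 3 and 7, 7 and 9, and 11 and 7. Background in that comparison was 21.3% higher and 22.2% lower.

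Among the resorption genes called in repopulating against wild-type microglia, Gnptab, which tags lysosomal enzymes with mannose phosphate, stood at 585, 611 and 508 in repopulating replicates 1 to 3 against 175 and 191 in the wild type, the membrane protease Mmp14 at 865, 716 and 762 against 337 and 424, and cathepsin B (Ctsb) at 62078, 63244 and 48428 against 33379 and 31084. The neutrophil collagenase Mmp8 was lower, at 63.3, 31.0 and 19.6 against 564 and 724, and is itself one of the neutrophil markers. Spp1, osteopontin, an attachment protein of osteoclasts, stood at 2654, 6079 and 994 against 306 and 201 (log2 difference 3.34 ± 0.60, adjusted p = 0.0149, limma), in the order of repopulating libraries seen for Ctsk. The semaphorin Sema4d was higher by 0.78 ± 0.14. The melanosomal glycoprotein Gpnmb stood at 110.5, 98.9 and 114 against 33.1 and 38.6, and Vav3, an exchange factor downstream of integrins, was lower at 0.944, 4.43 and 2.30 against 18.2 and 23.4. Itgb3, the beta subunit of the osteoclast vitronectin receptor, was not called there, at 742, 601 and 657 against 777 and 703, but was at 28.2 to 52.0 in the bone-marrow macrophages, where Ctsk and Acp5 were well above wild type. Of the 11 genes named by smallest adjusted p in this comparison, Gnptab and Mmp8 passed in all 20 alternatives and the other 9 in 10 to 18 of them.

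Against bone-marrow macrophages the resorption genes named by smallest adjusted p were Ctsl (2.75 ± 0.15), the cathepsin inhibitor Cst3 (1.95 ± 0.18) and Rab27a (1.43 ± 0.14), which rose, and Mmp14 (-1.48 ± 0.13), which fell. The attachment and fusion genes were Itgb3 (4.18 ± 0.23), Tspan7 (3.11 ± 0.25) and the tetraspanin Cd81 (2.00 ± 0.13), which rose, and Vav3 (-4.46 ± 0.40), which fell.

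**Figure D5:**
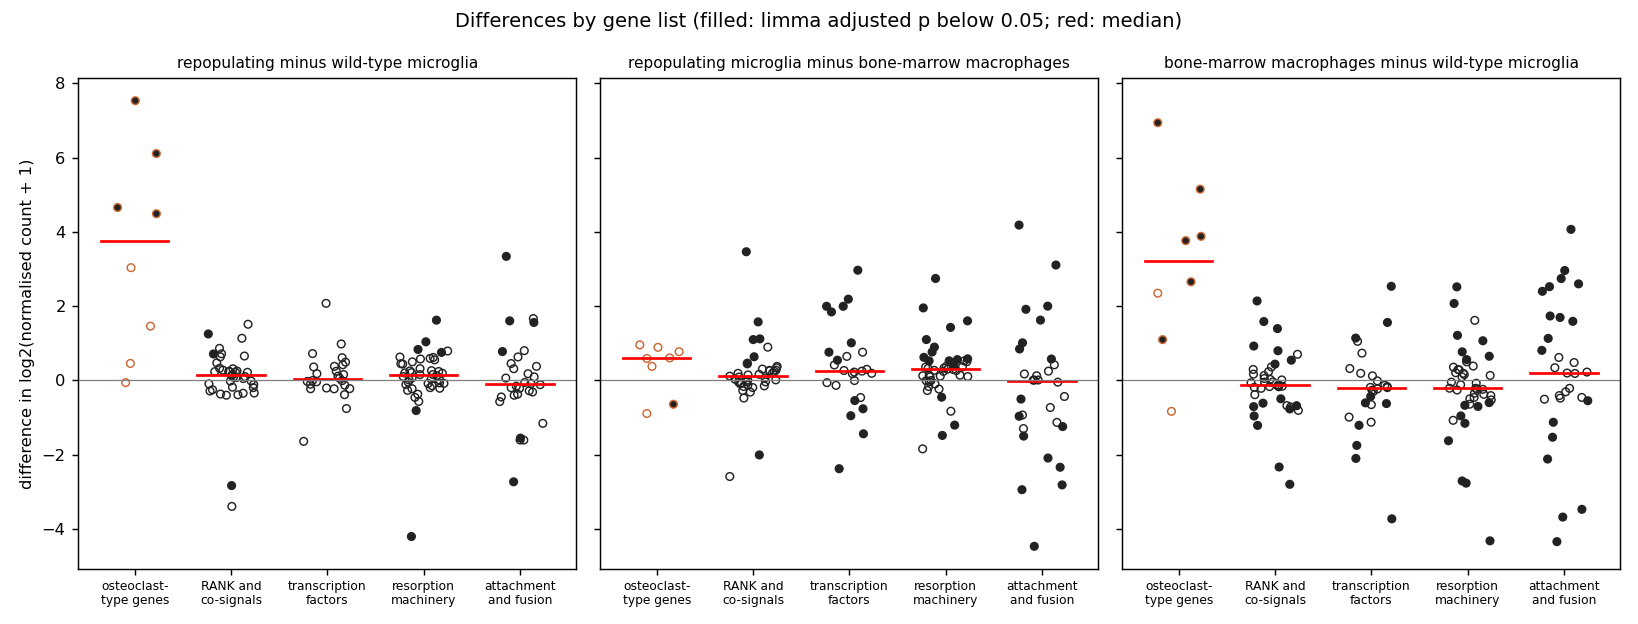
Difference in log2(normalised count + 1) (y axis) of each tested gene (points, filled where the limma adjusted p is below 0.05, red line at the list's median) for the osteoclast-type genes and 4 lists of the osteoclast programme (x axis), in each of the 3 comparisons (panels). In the left and right panels the osteoclast-type genes have medians of 3.76 and 3.21, while the medians of the 4 lists lie between -0.21 and 0.21. In the middle panel their median is 0.60, and those of the 4 lists lie between -0.02 and 0.30. The osteoclast-type genes were chosen on their levels in these libraries, so nothing is read from their distance to the lists.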

How the data were processed

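The 10 genes, the gene lists and the tests were chosen with earlier results of these data known. Per the labels' protocols, RNA of integrity above 8 went into the unstranded TruSeq RNA kit, version 2. Build mm10 and the tools DESeq 1.14.0, HTSeq, Bowtie2 2.1.0.0 and TopHat2 2.0.10 stand in the submitters' processing notes. What each tool did, and with which annotation, is not given in the sources used. Values in the deposited table are a signal, gene counts after division by a size factor of each library, since 100% of them were whole multiples of 1 read within 0.01 reads. Reads per library, recovered that way, ran from 5918944 to 12476427. Reads carried no molecular identifiers, so intervals (95%) and floors (3 reads) cover counting error only.

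Columns were matched to samples by name. Those named for repopulating cells and controls were matched first, and the remaining 3, named mono, were taken as the bone-marrow macrophages.

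One limma 3.58.1 model (R 4.3.3, variance trend) of log2(normalised count + 1) over all 8 libraries tested the 11415 genes reaching 10 normalised counts in 2 or more libraries, two-sided, at a Benjamini-Hochberg adjusted p of 0.05. The fit was also run on simulated data with the same spread setting for every gene and no outlying library. The osteoclast-type genes have a wide spread from repopulating replicate 3, so nothing about their calls is read from that run. Alternatives, 20 in all, were other pseudocounts (0.5 and 5), filters and scalings, only the groups compared, the replicate number as a block, robust variances, library weights, edgeR 4.0.16 and DESeq2 1.42.0 (12 adjusted p-values NA) on the recovered reads, and each library left out, always on the same tested genes except where the filter changed. In the pathway lists, up to 4 genes per list and comparison were named by smallest adjusted p, and 2 where none passed. Those of the third comparison are given by count only, and other genes named beside the members were chosen after their values were seen. Listed Spi1 and Pirb were matched as Sfpi1 and Lilrb3, and 1 attachment gene and 1 lymphocyte marker were not matched. Gene coordinates and exon lengths are those of GENCODE on GRCm38, promoters those of RefSeq on GRCm38.p6.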

Additional observations from a re-analysis of the deposited data

How the results depend on the processing

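Calls on the osteoclast-type genes rest on few libraries and on the spread of repopulating replicate 3. Calls over all tested genes moved too. In repopulating against wild-type microglia they went from 983 to 901 with no filter and to 78 with only the 2 groups. For repopulating against wild-type microglia the count of 4 became 2 with no filter on low values and 0 with only the 2 groups, and 0 to 7 when 1 library was left out. Against bone-marrow macrophages the count of 1 became 7 with library weights, whose estimation did not fully converge, and 1 to 7 with 1 library left out. For bone-marrow macrophages against wild type the count of 6 became 1 to 8 with 1 library left out. The spread of replicate 3, a median of -4.29, kept its direction throughout.

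The Mmp9 difference between repopulating and wild-type microglia turned from -0.06 to 0.75 with the replicate block, 1.23 with library weights, 1.14 by edgeR, 1.13 by DESeq2, 0.12 without wild-type replicate 2 and 1.67 without repopulating replicate 3, and ran from -1.10 to 1.67 with 1 library left out. Dcstamp ran from -0.32 (without wild-type replicate 1) to 3.24. Against bone-marrow macrophages, Ctsk turned to -0.01 without repopulating replicate 1, and without replicate 2 Ctsk turned to -0.58, Acp5 to -0.29, Atp6v0d2 to -0.12, Mmp9 to -0.27 and Ocstamp to -0.31, while without replicate 3 they were 2.37, 2.05, 2.39, 2.50 and 1.43. The cause was not tested.

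Pathway list genes called, 15, 53 and 60 in the 3 comparisons, became 2 with only the 2 groups, 44 with library weights and 29 by DESeq2 in the first, and 89 with library weights in the second. With 1 library left out they ran from 2 to 53, from 34 to 83 and from 31 to 80.

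Correlations between same-numbered libraries of different groups ran from -0.24 to 0.244. They cannot decide whether such libraries shared an animal or batch, in part because the wild-type libraries mirror each other around their mean. No pairing was assumed in the main fit. With the replicate block 5, 1 and 7 members were called in the 3 comparisons, and 733, 3564 and 4811 genes in all against 983, 3526 and 4960. Equal library totals moved the median of all genes to -0.12, -0.25 and 0.13 and turned no tested member. The calls of all genes that were higher went from 555 of 983 to 441 of 1167, from 1826 of 3526 to 1172 of 4096 and from 2428 of 4960 to 3000 of 5069. Counting error limits folds against libraries with few reads: in wild type Oscar, Calcr and Cd109 (0 or 1), Ocstamp (3 and 3), Atp6v0d2 (3 and 5), Ctsk (0 and 19) and Dcstamp (1 and 23), and in repopulating replicate 3 Oscar and Calcr (0) and Ocstamp and Dcstamp (6 each).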

Other observations

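Genes beside the osteoclast-type genes on the chromosome are given as values only. Of 9 neighbouring genes that passed the filter, 5 were lowest in repopulating replicate 3. The share of all tested genes lowest there was not counted. Of these 5, Elof1 and Pigyl had the order of libraries seen for the osteoclast-type genes, an order found in 26.7% of all tested genes. Beside Acp5, Elof1 had 288, 339 and 206 normalised counts across repopulating replicates 1 to 3 and Pigyl 100.1, 146 and 70.3, while Acp5 had 2569.9, 4186 and 164. Beside Ctsk, Arnt had 451, 447 and 528 and Ctss 146250, 137605 and 92819. Ndufa3, beside Oscar, had 555, 542 and 337, and Slc13a3, beside Ocstamp, had 250.3, 241 and 213. The other 3 were Slc17a5 beside Cd109, with 213, 270.1 and 226, Zfp335 beside Mmp9, with 47.2, 62.0 and 188, and Zcchc2 beside Tnfrsf11a, with 355, 282 and 389.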
